A study of Homo sapiens with 8 samples.

Results

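MYC, its dimerization partner MAX and the related factors that share or compete for that partner were followed across 4 conditions of U2OS cells, an established human osteosarcoma line. The members were taken by gene symbol: MYC, MAX, MXD1, MXD3, MXD4, MXI1, MNT, MLX, MLXIP and MGA. All 10 symbols were present among the 19414 genes in the deposited tables, and 9 of the 10 had enough reads to be tested; MXD1 did not. The 8 RNA-seq libraries fall into 4 groups of 2. WT cells carried neither introduced factor, MYC cells overexpressed MYC, Zab cells carried Zab, and Zab+MYC cells carried Zab and overexpressed MYC. All groups share the U2OS background, and total RNA was extracted with Trizol. Zab, or Zαβ, usually means the domains of ADAR1, an RNA editor, that bind nucleic acids in the Z form. The series title names MYC together with FACT, which is a histone chaperone, and Z-DNA, in which the double helix turns to the left. Neither the way MYC and Zab were introduced nor whether a condition is 1 clone or a pool of cells is stated in the labels read here.

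MYC is a basic helix-loop-helix leucine zipper protein that binds DNA as a heterodimer with MAX, most strongly at the E-box CACGTG, and recruits histone acetyltransferases and the elongation machinery. MXD1, MXI1, MXD3, MXD4 and MNT pair with MAX at the same motif and recruit SIN3 and histone deacetylases, so they act against MYC. MLX pairs with some MXD proteins, with MNT, and with the glucose-sensing Mondo proteins, of which MLXIP encodes MondoA. MGA pairs with MAX through its own helix-loop-helix domain inside a Polycomb complex called PRC1.6. In normal tissues MYC marks proliferating cells, while several MXD genes are known to be induced as cells stop dividing.

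The E-box was searched in the promoter windows of the members because it is the motif that all MAX dimers share. The letters CACGTG read the same on both strands, so 1 search covers both, and they overlap no other motif searched. RefSeq windows of 300 bases (GRCh38.p14, 250 before to 50 after each annotated start) were found for 9 of the 10 members, in 14 windows. The motif was present in at least 1 window of 3 members, MXD4, MNT and MLX. Counted by single window, it was in 3 of the 14 member windows, beside 7.26% of all 35116 windows of the table. The 14 windows belong to 9 members, so they are not separate genes, and the share carries no test. The stretches of 60 bases around those 3 matches are printed here, 5′ to 3′ on the gene's strand, with the E-box in capitals.
MXD4: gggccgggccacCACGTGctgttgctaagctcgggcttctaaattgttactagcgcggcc
MNT: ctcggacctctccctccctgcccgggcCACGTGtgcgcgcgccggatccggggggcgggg
MLX: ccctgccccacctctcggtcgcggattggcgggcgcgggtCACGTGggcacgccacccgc
The MXD4 stretch lies at chr4:2262300-2262359 on the minus strand, with the motif 238 bases before the annotated start. The MNT stretch lies at chr17:2401221-2401280 on the minus strand, with the motif 193 bases before the start. The MLX stretch lies at chr17:42567010-42567069 on the plus strand, with the motif 50 bases before the start. These 3 genes did not move alike in the libraries: MXD4 fell with MYC, MNT was called higher with MYC, and MLX was not called. A match describes these letters only, and binding was not measured here.

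Levels are given as CPM, tags (counted read fragments) scaled to a common library size, with the exon total of each library adjusted by TMM, a step that evens out differences in composition. The libraries were shallow, with 686992 to 1326170 exon tags each, so low genes such as MXD1 and MNT were measured with little precision. Exon tags made up 70.9% ± 0.342 (SD, n = 2) of the stated tag total in WT, 60.8% ± 0.192 in Zab, 69.1% ± 0.129 in Zab+MYC and 76.0% ± 0.119 in MYC. This share differed with the groups, and its part in the results below was not tested. Within each group the 2 libraries differed by about counting noise over most genes and by more over the highest (chi-square per degree of freedom of 1.03 or less over 7882 to 8388 genes with at least 25 tags, and 1.05 to 1.43 over the 187 to 377 genes with at least 1000 tags), and nothing in the labels says that they came from separate cultures. The spread behind every p-value is therefore that between libraries of 1 group, and it may be technical. Of 7 mesenchymal markers, 6 had tags in WT, MYC and Zab (COL1A2 was at 0) and all 7 had tags in Zab+MYC. Their summed level was 10952 to 11118 CPM in WT, 9038 to 9435 in Zab, 8061 to 8155 in Zab+MYC and 5652 to 5811 in MYC. The summed level of epithelial, blood, endothelial or neural markers did not exceed 29.1 CPM in any library. These marker levels moved with the groups, and their part in the results below was not tested. In whole-culture RNA, fewer cells of a type and less RNA per cell cannot be told apart. ADAR, whose reads would hold those of Zab if the construct contains ADAR1 sequence, had a mean level of 6100 ± 138 CPM (SD, n = 2) in the Zab libraries, 1043 ± 34.7 with both factors, 267 ± 3.75 in WT and 239 ± 11.8 with MYC only. ADAR RNA thus differed between the 2 groups that carry Zab. Construct and endogenous reads are not separated, and the part of this level in any difference between those groups was not tested.

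MYC transcripts (chr8:128748477-128755197 in hg19, the span of the transcript counted in 7 of the 8 libraries) stood at 72.6 and 94.8 CPM in the WT libraries, 230 and 194 in Zab, 707 and 705 in Zab+MYC, and 1237 and 1290 in MYC. The 4 groups did not overlap and rank WT, Zab, Zab+MYC, MYC. The libraries labelled as overexpressing MYC thus hold the most MYC RNA, and the Zab libraries hold more than WT. In 1 Zab library the gene was counted on a longer transcript of 4510 bases against 3716 in the others, and per kilobase of the counted transcript the Zab level was 51.5 ± 0.928 CPM against 22.5 ± 4.24 in WT. Introduced and endogenous MYC are not separated in these values.

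MAX (chr14:65541845-65569235, minus strand), the obligate partner, stood at 47.9 and 46.6 CPM in WT, 68.9 and 66.7 in Zab, 122 and 103 in Zab+MYC, and 156 and 142 in MYC. Its groups followed the order of MYC RNA without overlap. MXD4 (chr4:2249159-2263836, minus strand), a MAX-binding repressor, ran the opposite way, with 211 and 226 CPM in WT, 156 and 174 in Zab, 82.7 and 69.5 in Zab+MYC, and 42.0 and 51.2 in MYC. Again no 2 groups overlapped. MLXIP (chr12:122516662-122631889) stood at 84.5 and 110 CPM in WT, 128 and 135 in Zab, 149 and 179 in Zab+MYC, and 191 and 194 in MYC. MGA (chr15:41952610-42062141) stood at 79.5 and 60.4 CPM in WT, 95.4 and 92.4 in Zab, 114 and 106 in Zab+MYC, and 136 and 163 in MYC. Both followed the order of MYC RNA, although neighbouring groups were close.

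**Figure D1:**
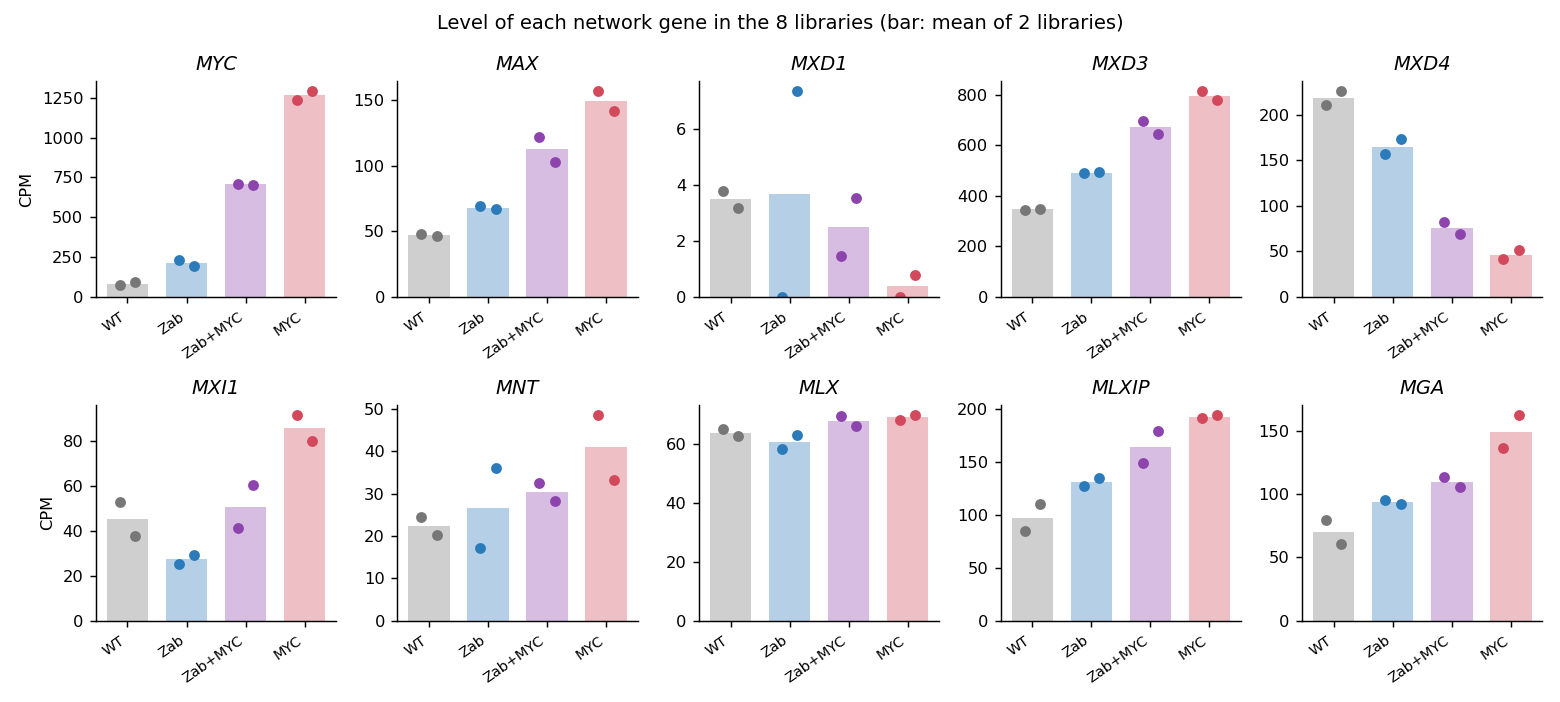
CPM of each of the 10 genes (y axes, from 0, each with its own scale) in the 4 groups (x axis); each point is 1 library and each bar the mean of 2. MYC, MAX, MXD3, MLXIP and MGA climb from WT through Zab and Zab+MYC to MYC without overlap (on the deposited scale the Zab means of MAX, MXD3, MLXIP and MGA lie below WT), MXD4 runs the opposite way, and MLX stays between 58.1 and 69.8 CPM.

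MXI1 (chr10:111985754-112047123 in 7 of the 8 libraries), a second repressor that pairs with MAX, did not share that order. It stood at 53.0 and 37.6 CPM in WT, 25.1 and 29.4 in Zab, 41.4 and 60.2 in Zab+MYC, and 91.5 and 80.1 in MYC. Zab was lowest and MYC highest, each clear of the others, while WT and Zab+MYC overlapped. MNT (chr17:2287367-2304354, minus strand), a widely expressed repressor, stood at 24.6 and 20.1 CPM in WT, 17.2 and 36.1 in Zab, 32.6 and 28.4 in Zab+MYC, and 48.6 and 33.3 in MYC. The 2 Zab libraries lay far apart and their range overlapped that of each other group. MLX (chr17:40719078-40725221 in 6 of the 8 libraries) stood at 65.0 and 62.5 CPM in WT, 58.1 and 63.0 in Zab, 69.6 and 65.9 in Zab+MYC, and 68.2 and 69.8 in MYC. No order could be read from MLX, since its neighbouring groups overlapped or lay within about 1 CPM of each other.

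MXD1 (chr2:70142241-70170076 in 6 of the 8 libraries), a repressor known from differentiating cells, gave few tags. Its tags summed to 6 in each of WT and Zab, 4 with both factors and 1 with MYC overexpressed, and in Zab all 6 came from 1 library. The ratio of MYC to WT was 0.124, with an exact 95% interval of 0.0027 to 1.02 that covers counting error only. With library totals in place of TMM the ratio was 0.114 (0.0025 to 0.936), so whether the interval holds 1 depended on the scaling, and 7 tags do not settle it.

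MXD3 (chr5:176732500-176738899, minus strand), a repressor known from S phase cells, gave the most CPM of the MXD genes, but its value cannot be read as its own. The counted transcript shares 1158 of its 2269 exon bases (51.0%, GENCODE v29) with PRELID1, a mitochondrial lipid-transfer gene on the other strand, and the counting command in the file headers shows no strand option. MXD3 stood at 345 and 346 CPM in WT, 488 and 492 in Zab, 696 and 644 in Zab+MYC, and 813 and 779 in MYC. In all 8 libraries the MXD3 tags came to between 0.911 and 0.998 of those on PRELID1. The groups did not overlap and followed the order of MYC RNA, and whether the reads come from MXD3 or from PRELID1 cannot be told apart. MXD3 is therefore counted below but left out of the sums, and each count is also given without it.

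Other members share fewer bases with a neighbour. MLX shares 770 exon bases (29.8% to 31.7%, by transcript) with PSMC3IP on the other strand, and the MLX tags were 1.86 to 2.79 times those of PSMC3IP. MNT shares 1065 bases (21.3%) with an antisense gene, AC006435.1. MAX shares 108 bases with the antisense gene AL139022.1, or 5.04% to 14.8% of annotated models of 728 to 2141 bases. The MAX transcripts counted had 2001 to 2100 bases, so the upper share is not theirs. For MXD1, MLXIP and MGA no overlap was found in this annotation. For MYC none was found over a model of 2366 bases, shorter than the counted transcripts of 3716 and 4510. The transcript counted differed between libraries for MYC, MAX, MXD1, MXI1, MLX and MGA, and was the same in all 8 for MXD3, MXD4, MNT and MLXIP.

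**Figure D2:**
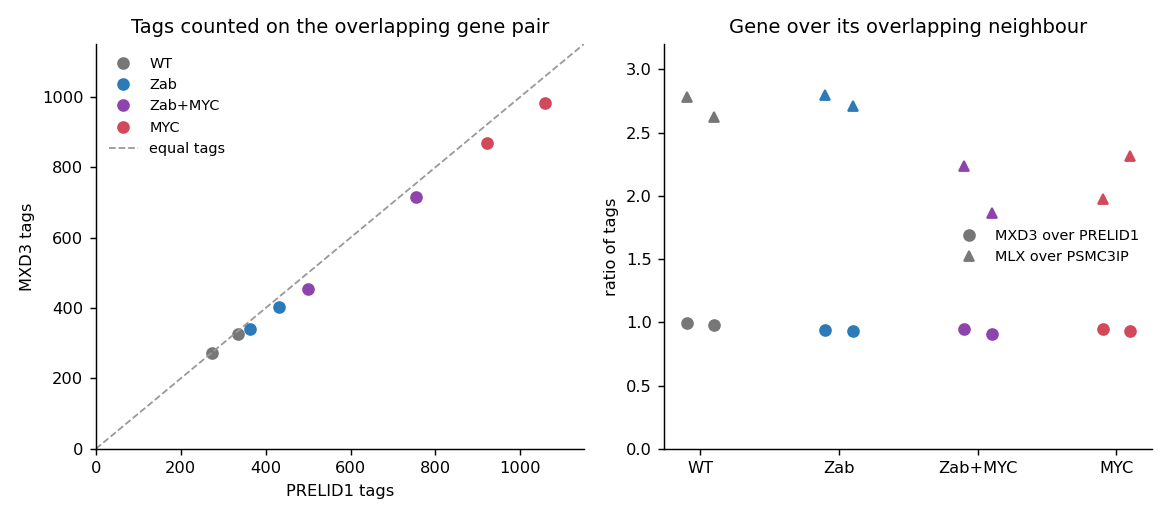
Left: MXD3 tags (y) against PRELID1 tags (x) in each library, with a dashed line of equal tags. Right: tags of MXD3 over PRELID1 (circles) and of MLX over PSMC3IP (triangles) in each library by group. MXD3 lies just under the line in every library, at 0.911 to 0.998 of PRELID1, and MLX lies at 1.86 to 2.79 times PSMC3IP.

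The comparison of MYC with WT asks what MYC overexpression does to its own network in cells without Zab. MYC, MAX, MXD3, MXI1, MNT, MLXIP and MGA rose and MXD4 fell, so 7 of the 9 tested members were higher, where 27.8% of all 9673 genes tested were higher, and 1 was lower, where 30.4% of all genes were. The call is an adjusted p under 0.05 (limma, Benjamini-Hochberg over all genes tested), and 58.2% of all genes were called in either direction. Without MXD3 the count of calls was 7 of 8. MYC, raised by design, is among the members higher, so its own call says nothing of the others. MYC rose by 3.90 ± 0.091 on the log2 scale (SE, adjusted p 3.5e-49), a 14.9-fold difference. MAX rose by 1.61 ± 0.16 (adjusted p 3.9e-14), or 3.06-fold, and MXD4 fell by 2.19 ± 0.147 (adjusted p 7.0e-22), or 4.55-fold. These differences were taken on log2(CPM + 2), where the change of a gene with few tags comes out too small.

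The remaining members moved by about 2-fold or less on that scale. MXD3 rose by 1.20, MGA by 1.08 ± 0.152 (adjusted p 4.6e-09), MLXIP by 0.98 ± 0.131 (adjusted p 1.1e-09) and MXI1 by 0.91 ± 0.219 (adjusted p 0.00026). The MNT rise, 0.80 ± 0.282 (adjusted p 0.012), was not called with 1 library fewer: it was 0.67 (adjusted p 0.086) without WT replicate 2 and 0.58 (adjusted p 0.17) without MYC replicate 1, and DESeq2 gave 0.095. MLX differed by 0.11 ± 0.181 (adjusted p 0.62), and its tags summed over both libraries gave a ratio of 1.09 with a counting interval of 0.850 to 1.40. The 2 repressors MXD4 and MXI1 thus moved in opposite directions under the same overexpression. The median log2 difference of the 9 tested members, MYC included, was 0.98, beside -0.04 over all genes.

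**Figure D3:**
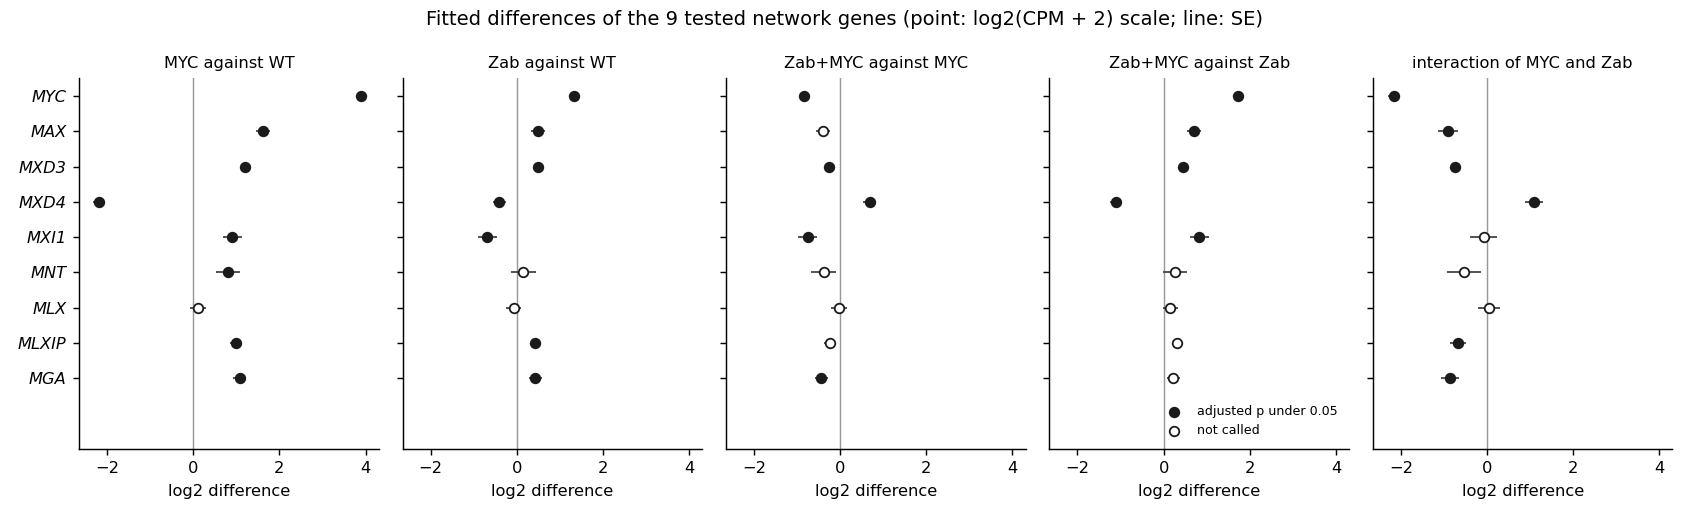
Log2 difference (x axis, log2(CPM + 2) scale) with its SE for the 9 tested genes in 4 comparisons and the interaction; filled points have an adjusted p under 0.05. MYC, MAX and MXD4 stand farthest from 0 in MYC against WT (3.90, 1.61 and -2.19), and MLX is open in every panel.

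The comparison of Zab with WT asks what Zab does to the network where MYC is not overexpressed. MYC, MAX, MXD3, MLXIP and MGA were higher, of which all but MYC lay below WT on the deposited scale, and MXD4 and MXI1 were lower. That is 5 higher (13.1% of all genes tested) and 2 lower (11.3%) of 9 members, with 24.4% of all genes called in either direction. Without MXD3 the count of calls was 6 of 8. MYC RNA rose by 1.33 ± 0.091 (adjusted p 1.4e-20), or 2.51-fold, with no sample of Zab at or below WT. MXD3, shared with PRELID1, rose by 0.50 (adjusted p 1.5e-08). MXI1 fell by 0.68 ± 0.219 (adjusted p 0.015), the opposite of its rise with MYC overexpression, and in both comparisons MYC RNA was higher.

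The other calls of Zab against WT were small and lay close to the threshold, so that leaving out 1 library could end them. MXD4 fell by 0.40 ± 0.147 (adjusted p 0.037), and the call was lost whichever of the 4 libraries compared was left out, at differences of -0.46 to -0.32 (adjusted p 0.096 and 0.21 without WT replicates 1 and 2, 0.23 and 0.066 without Zab replicates 1 and 2). MAX rose by 0.50 ± 0.16 (adjusted p 0.014), with 0.49 (adjusted p 0.057) without WT replicate 2 and 0.48 (adjusted p 0.069) without Zab replicate 1. MLXIP rose by 0.43 ± 0.131 (adjusted p 0.0093), with 0.25 (adjusted p 0.27) without WT replicate 1 and 0.41 (adjusted p 0.053) without Zab replicate 2. MGA rose by 0.43 ± 0.152 (adjusted p 0.030), with 0.24 (adjusted p 0.38) without WT replicate 2, 0.41 (adjusted p 0.11) without Zab replicate 1 and 0.47 (adjusted p 0.058) without Zab replicate 2. MXI1 differed by -0.43 (adjusted p 0.29) without WT replicate 1 and by -0.57 (adjusted p 0.098) without Zab replicate 1. The calls of MYC and MXD3 held without any 1 library. DESeq2 called only these 2 members in this comparison, with an adjusted p of 0.20 to 0.31 for the other 5, and edgeR did not call MAX (0.066) or MGA (0.059). MNT differed by 0.16 ± 0.282 and MLX by -0.07 ± 0.181, neither called.

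The direction of the small differences with Zab depends on the scale. The deposited values carry 1 factor per library, set by the authors in a way that no label or header states. A spike-in, foreign material added as a reference, is named with the data, and dm6 is among the builds. Whether it set the factor was not tested. On the deposited scale the median of all genes in Zab against WT was -0.50, beside -0.00030 after TMM. On the deposited scale 1 member was called higher, MYC, and 3 lower, MXD4, MXI1 and MLX, and MAX, MXD3, MLXIP, MGA and MNT lay between -0.33 and -0.02 with none called. Of all genes, 251 were then higher and 4801 lower, beside 1271 and 1092 after TMM. The rises of MAX, MXD3, MLXIP and MGA with Zab are therefore relative to the median gene.

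The comparison of Zab+MYC with MYC asks what Zab does where MYC is overexpressed. There MYC fell by 0.84 ± 0.091 (adjusted p 1.3e-11), or 1.79-fold, MXD4 rose by 0.69 ± 0.147 (adjusted p 0.00030), and MXD3, MXI1 and MGA fell. That is 1 of 9 members higher, where 11.8% of all genes were, and 4 lower, where 8.14% were, with 20.0% called in either direction. The 4 lower include MYC, which is overexpressed by design in both groups. Without MXD3 the count of calls was 4 of 8. On the deposited scale, where the median of all genes was -0.30, 1 member was higher and 7 lower, and of all genes 569 were higher and 2970 lower, beside 1146 and 787 after TMM.

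Among the repressors, MXI1 fell by 0.75 ± 0.219 (adjusted p 0.0085), and the adjusted p was 0.098 without MYC replicate 1 and 0.18 without Zab+MYC replicate 1. MXD3 fell by 0.25 ± 0.069 (adjusted p 0.0061), and the adjusted p was 0.052 without MYC replicate 1 and 0.058 without Zab+MYC replicate 2. MGA fell by 0.43 ± 0.152 (adjusted p 0.032), and the adjusted p was 0.29 without MYC replicate 2, 0.062 without Zab+MYC replicate 1 and 0.15 without Zab+MYC replicate 2. MAX differed by -0.41 ± 0.16 (adjusted p 0.062). It passed the threshold when a library of another group was left out (0.046 and 0.047 without WT replicates 1 and 2, 0.029 and 0.048 without Zab replicates 1 and 2). With edgeR MAX (0.0096) and MLXIP (0.047) were called too, and with DESeq2 MXI1 (0.064) and MGA (0.14) were not. MLXIP differed by -0.23, MNT by -0.38 and MLX by -0.03, none called.

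The comparison of Zab+MYC with Zab asks what MYC overexpression does in cells that carry Zab. There MYC rose by 1.73 ± 0.091 (adjusted p 9.0e-27), or 3.32-fold, MAX by 0.71 ± 0.16 (adjusted p 0.00042), MXI1 by 0.83 ± 0.219 (adjusted p 0.0023) and MXD3 by 0.45, and MXD4 fell by 1.10 ± 0.147 (adjusted p 6.8e-09). That is 4 of 9 members higher, where 14.3% of all genes were, and 1 lower, where 12.5% were, with 26.8% called in either direction and 4 of 8 without MXD3. The members higher include MYC, overexpressed by design. The MXI1 call was lost without Zab+MYC replicate 2 (adjusted p 0.14) and with DESeq2 (0.14). MLXIP differed by 0.32 ± 0.131 (adjusted p 0.065) and passed the threshold without WT replicate 1 (0.042), WT replicate 2 (0.048) or Zab+MYC replicate 1 (0.043). MGA, MNT and MLX differed by 0.22, 0.26 and 0.16, none called. On the deposited scale 2168 of all genes were higher and 792 lower, beside 1385 and 1207 after TMM, and 5 members were higher and 1 lower.

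Against WT, the cells with both factors had 5 members higher (21.6% of all genes) and 1 lower (20.6%), with 42.3% of all genes called in either direction and 5 of 8 members called without MXD3. Here too MYC, overexpressed by design, is among the members higher. MYC rose by 3.06, MAX by 1.21, MXD3 by 0.95, MLXIP by 0.75 and MGA by 0.65, and MXD4 fell 2.83-fold. MXI1 differed by 0.15 ± 0.219, MNT by 0.42 ± 0.282 and MLX by 0.09 ± 0.181, none called. On the deposited scale 1020 of all genes were higher and 3962 lower, beside 2092 and 1996 after TMM, and 4 members were higher and 1 lower. The comparisons above share control libraries, so their values are set side by side and are not separate evidence of a pattern.

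Whether the Zab difference depended on MYC was tested directly as (Zab+MYC minus MYC) minus (Zab minus WT). MYC RNA was not equal in the groups that overexpress it, with a mean of 1263 CPM in MYC and 706 in Zab+MYC, and its part was not tested. The interaction was negative for 5 of 9 members, where 13.3% of all genes were, and positive for 1, where 14.6% were, with 27.9% called in either direction and 5 of 8 without MXD3. MYC, overexpressed by design in MYC and Zab+MYC, is among the 5 negative, so its own call says nothing of the others. MYC gave -2.16 ± 0.129 (adjusted p 8.3e-24), MAX -0.91 ± 0.227 (adjusted p 0.0013), MGA -0.86 ± 0.215 (adjusted p 0.0012) and MXD3 -0.75 ± 0.0976 (adjusted p 2.8e-09). For MLXIP it was -0.67 ± 0.186 (adjusted p 0.0040, and 0.055 without WT replicate 1). DESeq2 did not call the interaction of MLXIP (0.081) or MAX (0.054). MXD4 gave 1.08 ± 0.208 (adjusted p 2.9e-05), from a difference of 0.69 in Zab+MYC against MYC and one of -0.40 in Zab against WT. The call of that fall was lost whichever compared library was left out, so a change of direction is not settled. With no gene filter the interactions of MXD4 (adjusted p 0.054), MGA (0.099) and MLXIP (0.15) were not called. MXI1 gave -0.08 ± 0.309 (adjusted p 0.89), with falls of 0.68 and 0.75 in the 2 settings. MNT gave -0.54 ± 0.399, not called, and -1.07 (adjusted p 0.038) without Zab replicate 1, and MLX gave 0.05 ± 0.256. The same subtraction holds whichever factor is named first, so it equally says that the MYC difference was smaller in Zab cells for the 5 negative members. Of all genes, 1408 were positive and 1287 negative after TMM, and 2098 and 845 on the deposited scale, where 1 member was again positive and 5 negative.

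The 4 groups were also set in order by the level of each gene, as a description. Besides MYC itself, MAX, MXD3, MLXIP and MGA followed WT, Zab, Zab+MYC, MYC with no overlap between any 2 groups, as did 6.93% of all genes tested, although on the deposited scale their Zab means lie below WT. MXD4 alone of the members followed the reverse order, as did 5.43% of all genes. Over the 8 libraries, which form only 4 groups, Pearson's r with MYC on the log2 scale was 0.99 for MAX, 0.99 for MXD3, 0.96 for MLXIP, 0.92 for MGA, 0.66 for MLX, 0.65 for MNT, 0.62 for MXI1 and -0.98 for MXD4. These values share libraries and groups and carry no test.

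Levels of different genes were compared per kilobase of the counted transcript. No source used here gives the length of the introduced MYC transcript, so its per length level assumes the annotated one. On that scale MYC over MAX was 0.955 ± 0.198 (SD, n = 2) in WT, 1.59 ± 0.0558 in Zab, 3.57 ± 0.399 in Zab+MYC and 4.79 ± 0.504 in MYC. MAX RNA thus rose with MYC RNA but by less, and the 4 groups did not overlap. The summed per kilobase level of MXD1, MXD4 and MXI1, which leaves out MXD3, was 71.0 ± 0.664 CPM in WT, 51.6 ± 5.35 in Zab, 35.7 ± 1.92 in Zab+MYC and 38.4 ± 0.701 in MYC. MYC over that sum was 0.317 ± 0.0627, 1.0 ± 0.0863, 5.33 ± 0.296 and 8.86 ± 0.422 in the same order. The sum per MAX was 3.01 ± 0.0316, 1.59 ± 0.192, 0.672 ± 0.112 and 0.540 ± 0.0312 in that order. The direction of the sum depends on leaving out MXD3. With the MXD3 value counted in, it rose, at 224 ± 0.237, 269 ± 6.47, 332 ± 14.4 and 391 ± 11.3 CPM in that order. MYC over this wider sum still climbed, from a mean of 0.101 in WT to 0.871 in MYC. The wider sum per MAX still fell, from 9.48 to 5.49. MNT is in neither sum.

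The make-up of the sum of MXD1, MXD4 and MXI1, without MXD3, differed between groups as well. MXD4 made up 79.6% ± 4.60 of it in WT, 83.1% ± 2.43 in Zab, 55.5% ± 9.79 in Zab+MYC and 31.5% ± 4.93 in MYC. MXI1 made up 19.5% ± 4.5, 15.7% ± 0.738, 43.3% ± 9.11 and 68.3% ± 5.19 in the same order, so MXD4 led the sum in WT and Zab and MXI1 led it in MYC. MXD4 over MXI1 was 4.22 ± 1.21 in WT, 5.30 ± 0.404 in Zab, 1.34 ± 0.507 in Zab+MYC and 0.465 ± 0.107 in MYC per kilobase, with WT and Zab overlapping. MLXIP over MLX, the 2 partners of the glucose-sensing arm, was 0.467 ± 0.0995 in WT, 0.634 ± 0.0243 in Zab, 0.742 ± 0.124 in Zab+MYC and 0.818 ± 0.0428 in MYC.

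**Figure D4:**
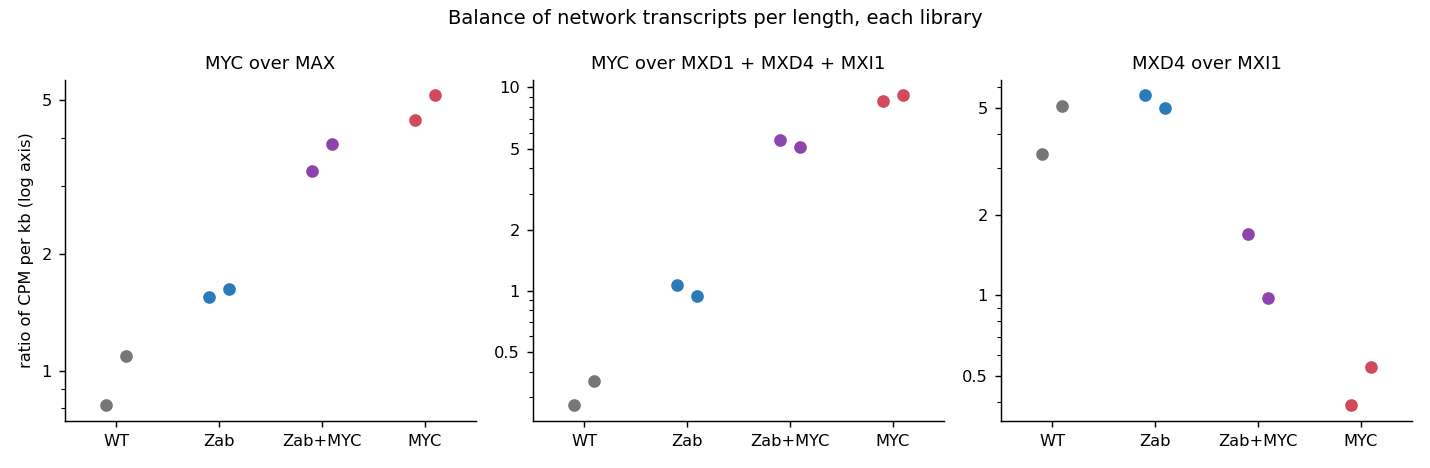
Ratios of CPM per kb (log axes) in each library by group: MYC over MAX, MYC over the sum of MXD1, MXD4 and MXI1, and MXD4 over MXI1. The first 2 ratios climb from WT to MYC (means of 0.955 to 4.79 and of 0.317 to 8.86) and the last is lowest in MYC, with a mean of 0.465.

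Genes that work with the network were taken from fixed lists. Of the other E-box binding helix-loop-helix zipper factors, 7 of 9 were tested, and in MYC against WT 5 fell and 1 rose, with a median log2 difference of -0.67 beside -0.04 for all genes, of which 27.8% were higher and 30.4% lower. TFEB (-1.39), TFE3 (-1.19), both regulators of lysosome genes, and SREBF2 (-1.18), the regulator of cholesterol synthesis genes, were among those that fell, while TFAP4, a known MYC target, rose by 1.31. TFEB and TFAP4 had only 76.5 and 86 tags over all 8 libraries. SREBF2 stood at 47.7 ± 15.7 CPM (SD, n = 2) in WT and 19.3 ± 0.411 in MYC. In Zab+MYC against MYC 1 of the 7 rose, SREBF2, by 1.06, where 11.8% of all genes did. The closest relatives of the members were barely seen: MYCN gave 2 tags and MLXIPL 3 over all 8 libraries, MYCL gave 23.5, and none was tested.

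Of 15 SIN3, HDAC and NCoR corepressor genes, which serve MXD and MNT, 2 rose in MYC against WT, HDAC2 by 0.52 and SAP18 by 0.51, and 3 fell, among them ARID4A by 1.70 and RBBP7 by 0.53, with a median of -0.18. The 5 calls stand beside 58.2% of all genes called. In Zab against WT 2 of the 15 fell, RBBP7 by 1.21 and ARID4A by 1.05, a share near the 11.3% of all genes that did. RBBP7 stood at 34.9 ± 19.9 CPM (SD, n = 2) in Zab, where the 2 libraries lay far apart, and 77.8 ± 14.9 in WT. ARID4A had only 119 tags over all 8 libraries. Of 10 genes of the MGA complex, 3 rose in MYC against WT, TFDP1 by 0.80, CBX3 by 0.64 and L3MBTL2 by 0.40, and RING1, a ubiquitin ligase subunit, fell by 1.25, with a median of 0.39, beside 27.8% of all genes higher and 30.4% lower. In Zab+MYC against Zab 4 of the 10 rose, where 14.3% of all genes did, CBX3, TFDP1, L3MBTL2 and RYBP, by 0.35 to 0.47.

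Of 18 MYC coactivators and chromatin partners, 6 rose and 2 fell in MYC against WT, with a median of 0.18, beside 58.2% of all genes called in either direction. RUVBL1 and RUVBL2, the paired ATPases of several chromatin complexes, rose by 1.28 and 1.02, KAT2A, an acetyltransferase, by 0.88, and BRD8, a bromodomain subunit of an acetyltransferase complex, fell by 0.81. SSRP1 and SUPT16H, the 2 subunits of FACT, rose by 0.36 (adjusted p 0.0022) and 0.37 (adjusted p 0.033). In Zab against WT 5 of the 18 rose and 3 fell, beside 13.1% and 11.3% of all genes, with RUVBL1 up by 0.78, RUVBL2 by 0.71, EP400 by 0.54 and HCFC1 by 0.50. These are relative to the median gene, which lay at -0.50 on the deposited scale. SSRP1 fell there by 0.28 (adjusted p 0.036), while SUPT16H differed by 0.023 (adjusted p 0.93), not called. SSRP1 stood at 232 ± 39.95 CPM (SD, n = 2) in WT and 189 ± 6.18 in Zab. With MYC overexpressed, in Zab+MYC against MYC, SSRP1 fell by 0.31 (adjusted p 0.027). SUPT16H differed there by -0.30 (adjusted p 0.17), not called.

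Of 19 genes of MYC stability and turnover, 7 rose and 4 fell in MYC against WT, with a median of 0.02, a share of calls like the 58.2% over all genes. USP36, a deubiquitinase that stabilises MYC, rose by 2.03, SET, an inhibitor of the phosphatase PP2A, by 1.37 and SKP2, an E3 ligase subunit, by 1.04. PIM1, a kinase that acts with MYC, fell by 2.11 ± 0.441 (SE), with only 66 tags over all 8 libraries and 2.85 ± 2.70 CPM (SD, n = 2) in MYC. In Zab+MYC against MYC 4 rose and 3 fell, beside 11.8% and 8.14% of all genes, among them PIM1, up by 1.43, and USP36, down with a log2 difference of -0.71. Of 3 known targets of MondoA and MLX, 2 were tested. TXNIP, the best known of them, had a mean of 40.2 ± 5.37 CPM (SD, n = 2) in the MYC libraries, 33.0 ± 0.502 in Zab+MYC, 13.3 ± 2.43 in Zab and 9.08 ± 2.14 in WT. It rose by 1.94 (adjusted p 1.4e-07) in MYC against WT and by 1.20 (adjusted p 0.0020) in Zab+MYC against Zab. The other one, KLF10, differed by -0.46 in MYC against WT, not called, and fell by 0.90 (adjusted p 0.0024) in Zab+MYC against WT, where TXNIP rose by 1.67.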

How the data were processed

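RNA-seq of total RNA from 8 U2OS libraries, 2 per group, was analysed from the deposited tables, 1 per library. The authors' deposited signal is tags in exons times 1 factor per library, which was found from the values: in each library 100% of them were multiples of a single step (tolerance 0.1 of a step), and 2 steps were assumed to be 1 tag. Per the file headers, tags were counted by HOMER's analyzeRepeats over exons of coding genes (RefSeq, hg19), with 1 transcript kept for each symbol. The submitters' processing notes name HOMER 4.11.1, STAR (no version) and Trim Galore 0.6.6, and the builds dm6 and hg19 without a role. A spike-in is named with the data, but how the factor was set is not recorded.

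Tags were recovered, scaled with TMM and taken to log2(CPM + 2). Genes kept by filterByExpr (9673 of 19414) were fitted with limma, with a mean-variance trend, to all 8 libraries, with a mean for each group and 4 degrees of freedom left. Tests were two-sided, and a Benjamini-Hochberg adjusted p under 0.05 was called. Very small p-values rest on a spread pooled over genes. edgeR's quasi-likelihood test on the recovered tags, rounded, called 5906 genes for MYC against WT, 2319 for Zab against WT, 2417 for Zab+MYC against MYC, 2519 for Zab+MYC against Zab, 4161 for Zab+MYC against WT and 2752 for the interaction. Both model fits were first run on simulated data with fewer changed genes and a wider spread than these data, and no result here rests on that run. Counting intervals are exact, at 95%, and cover only counting error, since the reads carry no molecular identifiers and may repeat a molecule.

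The members and gene lists were chosen with earlier results of these data known. Every member was named in every comparison. Up to 4 called genes of a list, those with the largest absolute difference, were named per comparison; the FACT subunits and KLF10 were added after their values were seen. Overlaps between exons were counted within GENCODE v29 (GRCh38), and hg19 coordinates, 1-based, are those of the deposited tables. Alternatives were RLE scaling, library totals, the deposited scale, no gene filter, at least 5 CPM in 2 libraries, pseudocounts of 1 and 5 CPM, edgeR, DESeq2, the compared libraries alone, replicate number as a block, genes counted on 1 transcript throughout, and each library left out. The counts without MXD3 and the summed tags were added after seeing the data. The tools were limma 3.58.1, DESeq2 1.42.0 and edgeR 4.0.16 in R 4.3.3, and scipy 1.17.1, pandas 2.3.3, matplotlib 3.10.9 and numpy 2.4.6 in Python 3.11.15.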

Additional observations from a re-analysis of the deposited data

Results flagged for a closer look

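For 6 members the difference between cells with and without Zab was not the same with and without overexpressed MYC, by the interaction term in limma. On the log2 scale the difference with MYC minus that without was -2.16 for MYC, -0.91 for MAX, -0.75 for MXD3, whose reads cannot be told apart from those of PRELID1, -0.67 for MLXIP and -0.86 for MGA. For MXD4 it was 1.08. The 6 genes share the same 8 libraries. MYC RNA had a mean of 1263 CPM in MYC and 706 in Zab+MYC, so these groups are not matched in it. ADAR stood at 6100 CPM in Zab and 1043 in Zab+MYC. The part of either in these differences was not tested.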

How the results depend on the processing

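Over 1086 alternative values of single members, 984 kept direction and side of the threshold, 59 no longer passed, 21 newly passed and 22 turned direction. In the order MYC against WT, Zab against WT, Zab+MYC against MYC, Zab+MYC against Zab, Zab+MYC against WT and the interaction, the tests called 8, 7, 5, 5, 6 and 6 members and 5633, 2363, 1933, 2592, 4088 and 2695 genes. With each library left out in turn they called 7 to 8, 3 to 7, 3 to 6, 4 to 6, 6 and 5 to 7 members, and 4796 to 5980, 1665 to 2343, 1136 to 2213, 1712 to 2648, 3233 to 4385 and 2129 to 2500 genes. Over genes counted on 1 transcript in all libraries, which are fewer genes and members, the calls were 4, 3, 2, 2, 3 and 3 members and 2851, 1352, 1064, 1473, 2196 and 1507 genes. On the deposited scale Zab against WT called 4 members and 5052 genes and Zab+MYC against MYC 8 members and 3539 genes. With no filter, limma called 2 members and 981 genes for Zab against WT, and 0 members and 699 genes for Zab+MYC against MYC. In the latter, 6 members had an unadjusted p under 0.05 with no filter. With the filter kept and p adjusted, edgeR called 7 members for Zab+MYC against MYC and DESeq2 called 3. Again with no filter, limma called 1167 genes for Zab+MYC against Zab, and 3 members and 1296 genes for the interaction. With DESeq2, Zab against WT called 2 members and 889 genes, Zab+MYC against MYC 3 members and 702 genes, Zab+MYC against Zab 926, Zab+MYC against WT 2284 and the interaction 1118 genes. The cause of these changes was not tested.

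Replicate numbers did not pair the libraries (correlations of deviations from -0.0226 to 0.0143), and with the replicate block 8, 7, 5, 5, 6 and 6 members and 5650, 2434, 2010, 2657, 4151 and 2756 genes were called.

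Directions also turned. On the deposited scale in Zab against WT, 4 members called higher after TMM turned with no call (MAX, MGA, MLXIP and MXD3, at 0.50, 0.43, 0.43 and 0.50), and so did MNT (0.16, not called). The values there were -0.024 for MAX, -0.10 for MGA, -0.10 for MLXIP, -0.33 for MNT and -0.040 for MXD3, in Zab+MYC against WT -0.29 for MLX and -0.21 for MXI1, and for the interaction 0.10 for MXI1. With library totals MLX was -0.014 in MYC against WT and 0.029 in Zab+MYC against MYC, and the MXI1 interaction 0.017. With a library left out, MNT ran from -0.32 (without Zab replicate 2) to 0.65 in Zab against WT and from -0.23 (without Zab replicate 1) to 0.76 in Zab+MYC against Zab. MXI1 ran from -0.10 (without Zab+MYC replicate 2) to 0.42 in Zab+MYC against WT, and its interaction from -0.38 to 0.16 (without WT replicate 2). The MLX interaction was -0.0085 with the filter of 5 CPM and ran from -0.047 (without Zab replicate 1) to 0.084 with a library left out.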

Other observations

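Among 3754 genes that varied enough to be ranked, those whose log2 levels followed MYC RNA most closely over the 8 libraries were TIMM50 (Pearson's r 0.9994), CCDC137, CCT2, FABP5 and TMEM184A. TIMM50, a subunit of the mitochondrial import machinery, stood at 157 CPM in WT, 243 in Zab, 415 in Zab+MYC and 560 in MYC. CCT2, a chaperonin subunit, ran from 534 CPM through 768 and 1144 to 1452 across those groups. Those most like MXD4 were LIMD2 (r 0.996), EFNB3, SPARC, CNP and NPC2. SPARC, a matrix glycoprotein that is also among the mesenchymal markers, stood at 1849 CPM in WT, 1294 in Zab, 648 in Zab+MYC and 382 in MYC. NPC2, a lysosomal cholesterol carrier, went from 908 CPM to 776, 361 and 219 across the same groups. The libraries form only 4 groups, so these likenesses are a description.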
